A study of Mus musculus with 2 samples.

Results

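The genes described here are those of the myosin motors and their light chains: the heavy chains, the regulatory and essential light chains, the light chain kinases and the unconventional myosins. They were chosen by symbol alone (Myh, Myl, Mylk, Mylpf or Myo followed by a number and the letters of the rule), with no use of measured values, and came to 50 of the 43346 Ensembl genes in both gene tables. By role they were 14 class II heavy chains, 7 regulatory light chains, 5 essential light chains, 4 light chain kinases and 20 unconventional myosins. The study profiled polyadenylated RNA of the urinary bladder of C57BL/6J mice aged 8 weeks. It used 2 stranded paired-end libraries labelled biological replicates 1 and 2. The mice are given as littermates and their sex as mixed, while another field gives sex as not collected. No gene was altered and no agent was given, so there is 1 group and no contrast between conditions. Both libraries name the same donor entry and the labels give no number of animals, so the spread between them may be partly technical. Gene counts came to 99367453 in replicate 1 and 105057347 in replicate 2, where 3 counts, the limit that a count of 0 allows, stand for 0.0302 and 0.0286 CPM. All 10 smooth muscle markers and all 6 superficial urothelium markers on the lists reached 1 TPM in both libraries, as did 4 of 4 leukocyte and 3 of 3 fibroblast markers.

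A class II myosin is a pair of heavy chains, each with an actin-binding motor head, a neck that carries 1 essential and 1 regulatory light chain, and a long coiled-coil tail that packs into filaments. In smooth muscle, calcium and calmodulin switch on the kinase encoded by Mylk, which phosphorylates the regulatory light chain and lets the motor pull on actin, while myosin phosphatase removes the phosphate. The bladder wall holds a thick smooth muscle layer, the detrusor, that contracts by this switch to void urine. Many unconventional myosins carry membranes and vesicles along actin, and most form no such filaments.

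Some results below turn on short exons that the splice junction reads show as used in part, and these are given first. Coordinates are on mm10, on the strand of the gene, and each sequence runs 5′ to 3′. In the first 5 lines, capitals mark an in-frame stop codon of the GENCODE M21 transcript that holds the exon, and the sequence ends there.
Myh11 21-base exon, chr16:14248580-14248600, minus strand: caaggtccatcttttgcctac
Myh11 39-base exon, chr16:14198050-14198088, minus strand, bases 1 to 31: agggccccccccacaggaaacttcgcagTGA
Myl6 45-base exon, chr10:128491720-128491764, minus strand, bases 1 to 29: catttgtgaggcatatcctgtcggggTGA
Myl6 58-base exon, chr10:128491290-128491347, minus strand, bases 1 to 50: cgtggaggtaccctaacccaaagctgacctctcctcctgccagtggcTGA
Myh14 24-base exon, chr7:44657417-44657440, minus strand: gcctccgtcagcaccatgtcttat

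The 21-base exon of Myh11 adds an insert to a surface loop of the motor head, the form called SM-B that is known from fast, phasic smooth muscle. The 39-base exon of Myh11 ends the tail early, which gives the SM2 heavy chain in place of SM1. The exons of Myl6 change the last residues of the light chain, and the 24-base exon of Myh14 lies in a loop of the head. The 21-base and 24-base exons hold no stop, so their lines have no capitals.

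A pair of Myo5a exons is shown for the same reason. Both are written in lower case, since they hold no stop.
Myo5a 81-base exon, chr9:75192384-75192464, plus strand: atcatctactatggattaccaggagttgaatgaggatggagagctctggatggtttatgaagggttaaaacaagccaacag
Myo5a 75-base exon, chr9:75196126-75196200, plus strand: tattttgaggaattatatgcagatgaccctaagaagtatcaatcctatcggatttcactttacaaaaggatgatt

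The 81-base and 75-base exons of Myo5a lie in its tail and are known as exons D and F. Exon F carries a binding site for melanophilin, the adaptor that links this motor to pigment granules.

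Levels are in TPM, a unit in which each gene's reads are divided by transcript length and then by the sum over the library, as the authors deposited them. Of the 50 genes, 29 reached 1 TPM in both libraries, against 32.7% of all genes measured. Under 1 TPM in both libraries were 20 genes, and Mylpf, the regulatory light chain of fast skeletal muscle, passed in replicate 2 alone, with 0.62 TPM in replicate 1 and 1.21 TPM in replicate 2. Together the 50 genes took 1.69% of all gene TPM (replicate 1) and 1.52% (replicate 2). Their part of the gene counts was 2.38% and 1.79%.

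**Figure D1:**
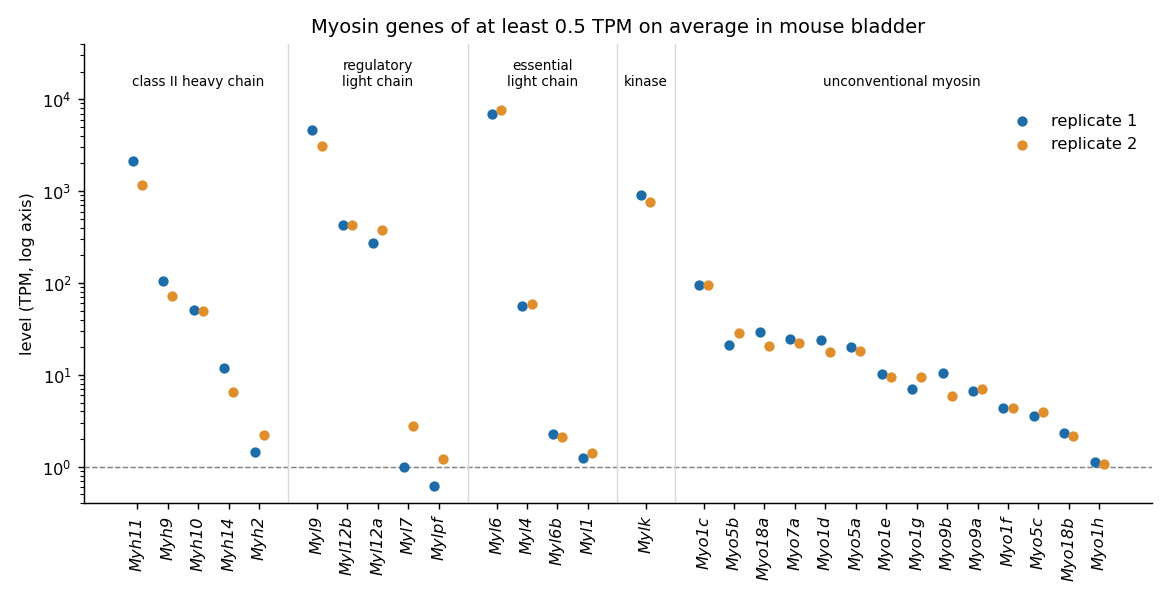
TPM in replicate 1 and replicate 2 on a log axis for the named myosin genes that averaged at least 0.5 TPM, grouped by role, with 1 point per library and a dashed line at 1 TPM. Myl6, Myl9, Myh11 and Mylk stand above the other genes, the lowest of the 4 being Mylk at 902 and 755 TPM.

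Myh11 (ENSMUSG00000018830.8, chr16:14194535-14291372, minus strand), the smooth muscle heavy chain, led the class II heavy chains. It had 2113 TPM in replicate 1 and 1170 TPM in replicate 2, a mean of 1642 ± 666 (SD, n = 2), on 1046647 and 639470 counts. Of the summed TPM of the 14 heavy chains it held 92.5% in replicate 1 and 89.97% in replicate 2 (91.2% ± 1.8, SD, n = 2). In both libraries, then, most heavy chain RNA per length was Myh11.

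The non-muscle heavy chains, which serve cell shape, adhesion and division in most cell types, followed. Myh9 (non-muscle IIA, chr15:77760587-77842175) had 106 TPM in replicate 1 and 71.6 TPM in replicate 2. Myh10 (non-muscle IIB, chr11:68691559-68816632) had 51.3 and 49.9 TPM, and Myh14 (non-muscle IIC) 11.8 and 6.56 TPM. The order IIA, IIB, IIC was the same in both libraries. Myh11 exceeded Myh9 by 4.17 ± 0.21 on the log2(TPM + 0.5) scale (SD, n = 2), a 17.98-fold difference in level. Myh9 exceeded Myh10 by 0.78 ± 0.37 and Myh10 exceeded Myh14 by 2.45 ± 0.54 on that scale. By other measures Myh9 over Myh10 was larger, at 1.78 in CPM, 1.81 in mm9 RPKM, 2.32 in coding transcripts and 2.23 in junction reads. CPM, here and below, is not divided by transcript length, which was 7133 bases for Myh9 and 3689 for Myh10. Each of the 3 differences in TPM was larger than its SD between the libraries, but 2 libraries of 1 group allow no exact test that could reach 0.05.

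The heavy chains of skeletal and cardiac muscle were near or under the detection level. Myh2, the heavy chain of fast IIa fibres, had 1.43 (replicate 1) and 2.19 TPM (replicate 2) and was the only one of them at 1 TPM. Myh7, the slow heavy chain, had 0.16 and 0.13 TPM, and Myh6, a cardiac one, 0.07 and 0.02 TPM. Perinatal Myh8 had 0.10 and 0.07 TPM, and fast Myh1 had 0.08 and 0.06 TPM. Myh4, the fast IIb heavy chain, had 2 and 5 counts, embryonic Myh3 1 and 0 counts, and extraocular Myh13 0 counts in both libraries. Myh15 and Myh7b lay at or under 0.05 TPM. Fast skeletal heavy chains are near-identical in sequence over long stretches, so reads can be split among them and these low levels are uncertain.

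The other markers of these muscles did not all share that low level. Of 10 skeletal muscle markers 5 reached 1 TPM in both libraries, and the list summed to 1735 TPM in replicate 1 and 1411 TPM in replicate 2, most of it the actin Acta1 with 1371 and 1042 TPM. Atp2a1, Ryr1, Pvalb and Mybpc2 were under 1 TPM in both. Of 6 cardiac markers 4 reached 1 TPM in both libraries, summing to 570 and 534 TPM over the list, with Nppa and Ryr2 under 1 TPM in both. The part of other muscle in the low striated myosins was not tested. In bulk tissue, fewer cells of a type and less RNA per cell cannot be told apart.

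Among the regulatory light chains, which the kinase phosphorylates, Myl9 (ENSMUSG00000067818.6, chr2:156775420-156781658, plus strand) led. Myl9 encodes the form of smooth muscle and had 4670 TPM in replicate 1 and 3130 TPM in replicate 2 (3900 ± 1089, SD, n = 2). It held 86.9% and 79.5% of the summed TPM of the 7 regulatory light chains (83.2% ± 5.2). Myl12b (chr17:70973133-70990890) had 433 (replicate 1) and 426 TPM (replicate 2), and Myl12a (chr17:70993656-71002878) had 269 and 376 TPM. Both Myl12 genes encode near-identical non-muscle regulatory light chains and neighbour each other on the minus strand, so their reads can be split wrongly between them. Myl12a was lower than Myl12b in both libraries, by a mean log2 difference in level of -0.43 ± 0.35. That order turned round in CPM, in mm9 RPKM, in coding transcripts and in junction reads. CPM is not divided by length, which was 1461 bases for Myl12a and 864 for Myl12b.

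The striated regulatory light chains were low. Atrial Myl7 had 1.00 TPM in replicate 1 and 2.80 TPM in replicate 2, on 30 and 90 counts. Ventricular Myl2 had 0.08 and 0.05 TPM, and Myl10 had 0 counts in both libraries. Myl9 exceeded Myl12a by 3.58 ± 0.75 on the log2(TPM + 0.5) scale, 12.0-fold in level.

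Myl6 (ENSMUSG00000090841.1, chr10:128490860-128494145, minus strand), the essential light chain of smooth muscle and non-muscle myosin, had the highest TPM of all 50 genes. It had 7003 TPM in replicate 1 and 7674 TPM in replicate 2 (7339 ± 474, SD, n = 2). Of the 5 essential light chains it held 99.2% in each library. Its paralog Myl6b had 2.29 and 2.11 TPM, 11.41 ± 0.16 lower than Myl6 on the log2(TPM + 0.5) scale. Myl6 has processed pseudogenes, so its level is uncertain to the extent that reads map to both.

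Myl4, an essential light chain known from the atrium and from embryonic muscle, stood out among the striated light chains with 56.4 TPM in replicate 1 and 59.2 TPM in replicate 2 (chr11:104550663-104595753). Its junctions held a median of 1319 reads over both libraries. Fast skeletal Myl1 had 1.24 and 1.42 TPM, and ventricular Myl3 had 0 counts in both libraries. The atrial regulatory light chain Myl7 was thus at 1.00 and 2.80 TPM beside a Myl4 above 50 TPM in each library.

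**Figure D2:**
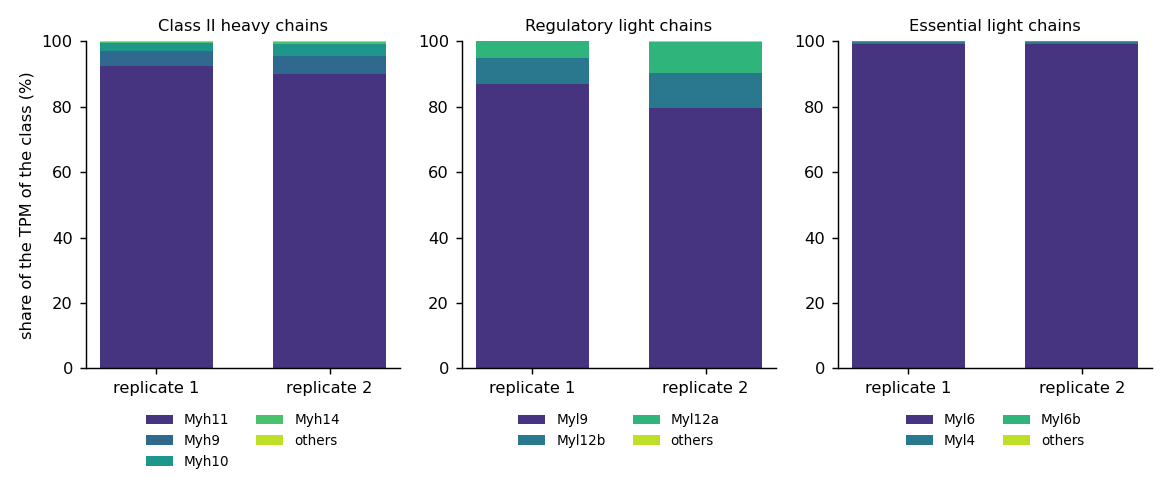
Share of summed TPM, in percent, held by each gene among the class II heavy chains, the regulatory light chains and the essential light chains, with replicate 1 left of replicate 2 in each pair of stacked bars. Myh11 fills 92.5% and 89.97%, Myl9 86.9% and 79.5%, and Myl6 99.2% and 99.2%.

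TPM placed Myl6 above Myl9 in both libraries, with a log2 difference of -0.94 ± 0.50 for Myl9 over Myl6. Median splice junction reads, which do not depend on transcript length, gave the other order, with 84989 reads per junction for Myl9 and 26010 for Myl6. The Myl6 median fell on a junction of only 1 of its 2 main 5′ forms, given below. The junctions into and out of its 174-base exon, between the alternative ends, held 85012 and 55104 reads, against 67667 to 93446 for Myl9. The mm9 RPKM values also put Myl9 higher, at 537 for Myl9 and 204 for Myl6. The order of these 2 genes therefore rests on the measure used and on the junctions taken. CPM, which is not divided by length, put them nearly level, at a log2 difference of 0.011 for Myl9 over Myl6. Transcript length was 1093 bases for Myl9 and 665 for Myl6. Apart from that division by length, the cause was not tested. For Myh11 the median was 30378 reads per junction and for Myh9 1657.

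Mylk (ENSMUSG00000022836.10, chr16:34745210-35002420, plus strand), the light chain kinase gene, had 902 TPM in replicate 1 and 755 TPM in replicate 2 (829 ± 104, SD, n = 2). The other kinases were under 1 TPM, with Mylk2 of skeletal muscle at 0.44 and 0.26 TPM, Mylk3 of heart at 0.15 and 0.15 TPM and Mylk4 at 0.02 and 0.01 TPM. Mylk exceeded Mylk4 by 10.65 ± 0.16 on the log2(TPM + 0.5) scale, a difference that rests on 7 and 4 counts of Mylk4. Its size depended on the measure, at 9.16 in mm9 RPKM, 9.67 with a pseudocount of 1 and 12.81 with a pseudocount of 0.1. In CPM it was 13.13 and in junction reads 14.70. Mylk4 had 0 reads at every junction, so the 14.70 rests on the constant added before taking the ratio. Per splice junction Mylk had a median of 13302 reads over both libraries, and Mylk2 7.5.

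From internal promoters Mylk is known to give several products: a long kinase, the short kinase of smooth muscle, and telokin, a small protein of the carboxyl end with no kinase domain. Only Mylk-201, of 7824 bases, and Mylk-202, a retained intron transcript of 3077 bases, were quantified, and Mylk-201 took 99.6% and 99.5% of the TPM. Junction reads along Mylk-201 were far from even. Junction 1 had 0 reads, but 210 reads joined its downstream exon, of 168 bases, to another upstream exon, as M21 has it in Mylk-202. Junctions 2 to 15 had a median of 424.5 reads (223 to 901). Junctions 16 to 29 had a median of 16197 reads (13302 to 23079), 38.2 times as many. The last 2 junctions rose again, to 43128 reads at junction 30 and 84922 reads at junction 31.

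Both steps were present in each library. The middle block exceeded the upstream block 42.2-fold in library R1 and 37.3-fold in library R2, so the upstream block held 2.37% and 2.68% of the reads of the middle block. The first step fell across an exon of 1088 bases, from 496 reads at junction 15 to 14111 reads at junction 16 (28.4 times as many). Along Myh9, taken as a gene of similar length, 39 steps between neighbouring junctions ranged from 0.53 to 2.34 times. Myh9 was chosen after its values were seen, and other members had larger steps. Myo1c had one of 7.56 times at junction 2, and Myh11 one of 0.022 times at junction 5 and one of 41.6 times at junction 6, on either side of the junction that skips its 21-base exon. In GENCODE M21 the coding transcript Mylk-203 of 1620 bases (chr16:34994807-35001363) shares only junctions 30 and 31 with Mylk-201 and was not among those quantified. The single gene level of Mylk thus sums blocks whose median junction reads were 424.5, 16197 and, for the last 2 junctions, 64025. By these medians the upstream block held 0.66% of the reads of the last block.

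**Figure D3:**
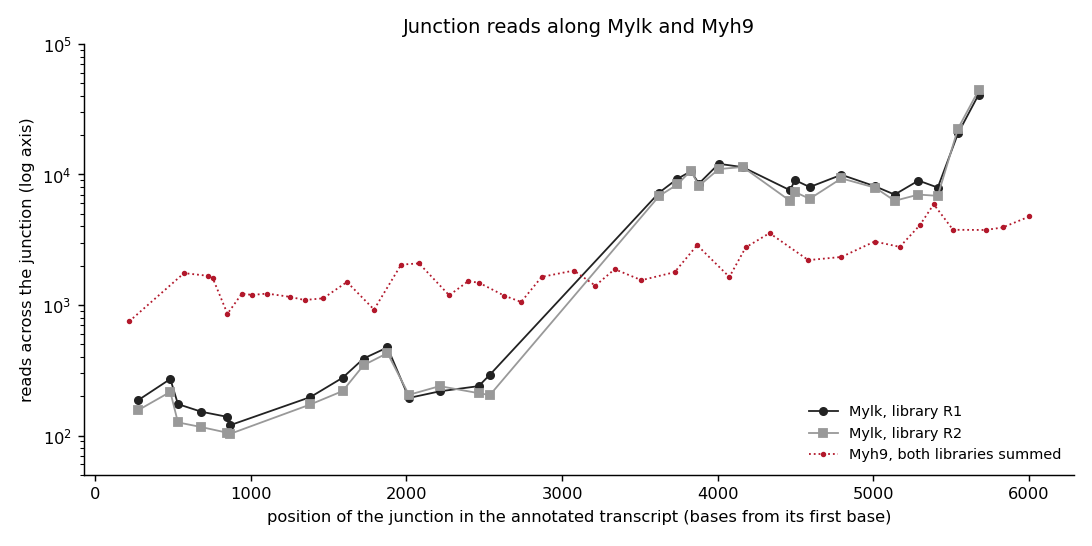
Reads per annotated splice junction of Mylk-201, on a log axis, by position in bases from the transcript's first base, with 1 line each for libraries R1 and R2. Summed over both libraries, reads lie between 223 and 901 over junctions 2 to 15 and between 13302 and 23079 over junctions 16 to 29, while the dotted line of Myh9, both libraries summed, has no such step.

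The genes that set the switch were measured beside the motors. Of 8 myosin phosphatase genes 7 reached 1 TPM in both libraries, led by the inhibitor Ppp1r14a (CPI-17) with 434 TPM in replicate 1 and 423 TPM in replicate 2. The myosin-targeting subunit Ppp1r12a had 271 and 216 TPM and the catalytic subunit Ppp1cb 200.9 and 174 TPM. Ppp1r14d passed in replicate 2 alone, at 0.51 and 1.06 TPM. All 12 measured genes on the list of other light chain kinases and their upstream signals reached 1 TPM in both libraries, led by the integrin-linked kinase Ilk (347 and 474 TPM), the GTPase Rhoa (236 and 229 TPM) and the kinase Stk38 (71.3 and 63.6 TPM).

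The calmodulin genes, whose proteins activate the kinase, were all detected: Calm2 had 869 and 871 TPM, and Calm3 156 and 137 TPM. Of 15 genes for heavy chain folding and filament assembly 8 reached 1 TPM in both libraries, led by the chaperone Hsp90ab1 (600 and 478 TPM), S100a4 (185 and 248 TPM) and supervillin, Svil (168 and 146 TPM). Smyd1, Mybpc1, Mybpc2, Mybpc3, Mybph, Myom2 and Myom3, most of them proteins of striated sarcomeres, were under 1 TPM in both libraries. Of 5 measured myosins that the symbol rule leaves out, Myo10 had 18.2 and 18.6 TPM, the minus-end motor Myo6 17.2 and 11.0 TPM and mitochondrial Myo19 10.1 and 13.1 TPM, while Myo15 and Myo16 were under 1 TPM.

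Of the 20 unconventional myosins 15 reached 1 TPM in both libraries, but together they took 0.0299% of all gene TPM (replicate 1) and 0.0290% (replicate 2). Myo1c, a short membrane-linked motor, was the highest with 94.5 TPM in each library. Another class I motor, Myo1d, had 24 and 17.6 TPM. Myo1c exceeded Myo1d by 2.18 ± 0.31 on the log2(TPM + 0.5) scale. Myo1e had 10.3 and 9.60 TPM, Myo1g, known from blood cells, 7.09 and 9.48 TPM, Myo1f 4.41 and 4.40 TPM, and Myo1h 1.13 and 1.07 TPM.

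The class V motors carry vesicles. Myo5b, which recycles membrane in epithelia, had 21.4 TPM in replicate 1 and 28.7 TPM in replicate 2, Myo5a 20.1 and 17.98 TPM, and Myo5c 3.58 and 3.92 TPM. Myo5a and Myo5b did not differ beyond their spread (log2 difference -0.37 ± 0.40), while Myo5b exceeded Myo5c by 2.57 ± 0.21. That excess was 1.46 in CPM, 1.63 in mm9 RPKM, 1.64 in junction reads and 1.05 in coding transcripts. Myo7a, the motor of inner ear hair bundles, had 24.7 and 22.2 TPM. Myo18a had 29.0 and 20.7 TPM and exceeded its muscle paralog Myo18b (2.34 and 2.17 TPM) by 3.18 ± 0.27 on the log2(TPM + 0.5) scale.

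Myo9a and Myo9b, motors with a domain that acts on small GTPases, changed places between the libraries. Myo9a had 6.69 (replicate 1) and 6.98 TPM (replicate 2), and Myo9b 10.6 and 5.87 TPM, a log2 difference of -0.20 ± 0.60. By median junction reads Myo9b was higher, at 160 reads against 28 for Myo9a, but CPM and mm9 RPKM gave the other order. Which of them is higher cannot be told from these libraries. Low in both were Myo15b, Myo1a, Myo3b, Myo7b and Myo3a, from 0.48 TPM down to 0 counts.

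A high gene level did not always mean a coding transcript. Of 18 genes of at least 5 TPM with more than 1 quantified transcript, 13 were led by a protein-coding transcript and 3 (Myh10, Myo7a and Myo5b) by a transcript of another type. The leading transcripts of Myh14 and Myo18a are not in GENCODE M21, so their type is not known here. Myh10-206, a processed transcript of 1811 bases, held 59.5% of Myh10 in replicate 1 and 68.1% in replicate 2, and the full coding Myh10-203 36.2% and 25.6%. For Myo7a a transcript marked for nonsense-mediated decay, Myo7a-212, led with 52.2% and 55.6%. Myo5b-209, a processed transcript of 470 bases, held 33.2% and 33.3% of Myo5b.

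Transcripts that M21 marks as coding held under 50% in both libraries in 5 genes. In Myh10 they held 37.5% in replicate 1 and 27.0% in replicate 2, in Myo5b 35.4% and 31.4%, and in Myo7a 27.4% and 22.1%. In Myh14 they held 38.0% and 31.8%, but a transcript of unknown type held 49.5% and 64.6%. In Myo18a they held 48.5% and 47.8%, and a transcript of unknown type held 27.2% and 21.2%, so the coding share of these 2 genes is not known. Myl12b was divided between coding Myl12b-201 (48.9% and 60.9%) and the retained intron transcript Myl12b-202 (48.9% and 36.1%). At the other end were Myl9-201 with 95.4% of Myl9 in each library, Myh9-201 with 94.6% and 95.3%, and Myo1d-201 with 98.9% and 99.1%. TPM divides by length, so that a read counts for more in a short transcript such as Myo5b-209 than in a full coding one.

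Of Myl4 the coding Myl4-202 held 81.8% in replicate 1 and 72.6% in replicate 2, and the retained intron transcript Myl4-204 held 14.6% and 22.9%. Other genes were led by coding transcripts, among them Myo1c-201 with 59.4% and 53.8% of Myo1c. Myl12a-206 held 44.6% and 47.9% of Myl12a and Myl12a-201 41.1% and 42.4%. In Myo9a the leading transcript was not the same in both libraries, since Myo9a-205 held 52.7% in replicate 1 and 29.4% in replicate 2 and Myo9a-203 34.5% and 55.8%. Myo9b-203 and Myo9b-201 kept their order, with 62.5% and 64.7% for Myo9b-203 and 37.5% and 35.3% for Myo9b-201.

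Splice junction reads, deposited as whole counts on mm9, showed which exons were used. The file sums both libraries and lists them also as R1 and R2, which no label ties to replicate 1 or 2. Inclusion of an exon is the mean of its 2 flanking junctions over that mean plus the skipping junction, and its 95% Wilson interval covers counting error only. An exon entered only where at least 1 read skipped it and its 3 junctions held at least 50 reads, so exons never skipped are not counted. Of 74 such exons, in 22 genes, 61 were included above 95% and 1 under 5%, a 54-base exon of Myo9a at 2.10%. The remaining 12 lay in 8 genes, and the length of every one of these 12 was a multiple of 3. Skipping a coding exon among them keeps the reading frame. M21 has the 90-base exon of Myo9b only in a processed transcript and no match for the 114-base one, so their frame is not known. By 1 flanking junction alone, other exons also fell between 5% and 95%. Among them were exons of 70 bases in Myh11 (58.8%, downstream) and 170 in Myo1f (40%, upstream), not multiples of 3. The 207-base exon of Mylk (50%, upstream), a multiple of 3, was another. Multiples of 3 among all 74 exons were not counted.

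In Myh11 the 21-base exon of the head was included in 97.5% (97.3 to 97.7), with 97.4% in library R1 and 97.6% in library R2, and 582 reads skipped it. The 39-base exon of the tail was included in 31.6% (31.2 to 32.0), with 32.7% in library R1 and 30.1% in library R2, on 17356 and 17625 inclusion reads and 37841 skipping reads. By junction reads, then, most Myh11 RNA held the head insert and the smaller part held the tail exon with its early stop. The only quantified Myh11 transcript, of 6632 bases, holds the 39-base exon and lacks the 21-base exon, so the deposited transcript table does not show this mixture.

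The 3′ end of Myl6 was joined in 3 ways over 18054 junction reads. The 45-base exon was joined in 47.5% of reads (43.9% in library R1 and 50.3% in library R2), and the final exon was reached directly in 43.8% (46.7% and 41.5%). The 58-base exon, which shares its upstream edge with a 62-base form, was joined in 8.78% (9.48% and 8.23%). The first 2 forms changed places between the libraries. Only 1 Myl6 transcript, of 665 bases, was quantified.

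At its 5′ end Myl6 also had 2 main forms, over 47437 reads joining the 144-base exon. A 28-base exon was joined in 54.8% (63.7% in library R1 and 46.1% in library R2). An exon across an intron of 193 bases was joined in 44.4% (35.6% and 53.1%). GENCODE M21 has that exon at chr10:128492939-128493045, as an internal exon. Junction reads that entered within 250 bases upstream of its downstream edge, a stretch that includes the exon itself, numbered 95, against 21062 that left it. RefSeq starts a Myl6 transcript inside it, at base 128493009.

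**Figure D4:**
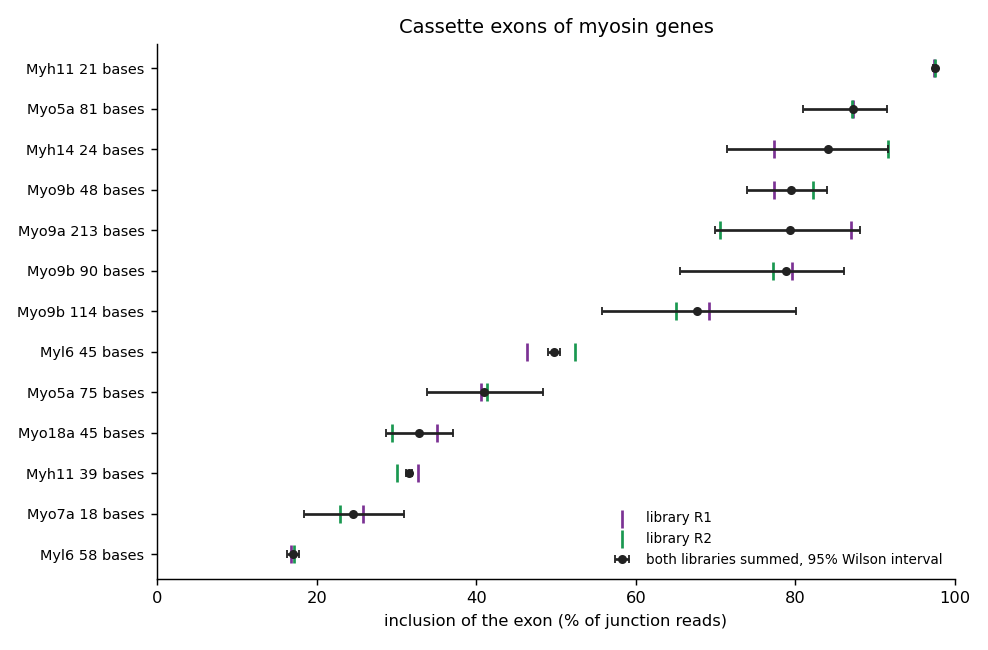
Inclusion in percent of 10 of the 12 myosin exons between 5% and 95%, of the Myh11 21-base exon and of 2 Myl6 exons against the direct joint, with the 95% Wilson interval of the summed reads as a bar and libraries R1 and R2 as purple and green ticks. The Myh11 exons have narrow intervals, and the largest gap between libraries among these 10 exons is 87.0% against 70.6% for the Myo9a 213-base exon.

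Among the unconventional myosins, exon D of Myo5a was included in 87.2% (81.0 to 91.5) and exon F in 40.9% (33.8 to 48.4). Both Myo5a values were nearly equal in the libraries, with 87.2% and 87.1% for exon D and 40.6% and 41.3% for exon F. Exon F thus fell in the middle of the range, on 241 reads.

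In Myh14 the 24-base exon was included in 84.2% (71.5 to 91.7) on 93 reads. In Myo18a a 45-base exon was included in 32.8% (28.7 to 37.1), and in Myo7a an 18-base exon in 24.5% (18.4 to 31.0). A 213-base exon of Myo9a was included in 79.3% (70.0 to 88.0), with 87.0% in library R1 and 70.6% in library R2. Of 3 Myo9b exons the 90-base one was included in 78.9% (65.6 to 86.0), the 114-base one in 67.6% (55.7 to 80.1) and the 48-base one in 79.4% (74.0 to 84.0). For the 90-base exon of Myo9b the upstream junction alone gave 85.6% and the downstream one 60.6%, and for the 114-base exon 54.1% and 75%.

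The libraries were then set against each other, as log2(TPM + 0.5) in replicate 1 minus that in replicate 2, relative to the median of the 14533 genes that averaged at least 1 TPM (-0.08). A difference of at least 1.5-fold was counted. With 1 library a side there is no test. Of the 29 myosin genes that averaged at least 1 TPM, 6 passed that fold, against 8.28% of all genes so tested. Higher in replicate 1 were 5 of them (all genes 6.08%) and lower was 1 (all genes 2.21%).

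The 5 higher in replicate 1 were Myh11 (log2 ratio 0.94), Myh14 (0.89), Myo9b (0.88), Myl9 (0.66) and Myh9 (0.64). Myl7 was lower in replicate 1, at -1.05. Over all 29 genes 21 ratios lay above 0, with a median of 0.12. The class II heavy chains had a median of 0.64, with 4 of 5 above 0 and Myh2 below it at -0.40. The ratios of Mylk (0.34), Myl6 (-0.05) and Myl12a (-0.40) stayed inside the fold.

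Transcript length and tissue markers moved with these ratios. Over all 14533 genes the Spearman correlation across genes, which are not independent replicates, of ratio with length was 0.348. The median ratio of the 4033 genes of 1000 to 2000 bases was -0.12 and that of the 916 genes over 6000 bases 0.24, of which 13.2% were past the fold and higher in replicate 1. With the trend with length removed, Myh11 had 0.68, Myh14 0.83, Myo9b 0.60 and Myl9 0.76, while Myh9 dropped inside the fold at 0.36 and Myh2 passed it at -0.62. The median over the 29 genes was then 0.03. The part of length in these differences was not tested further.

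**Figure D5:**
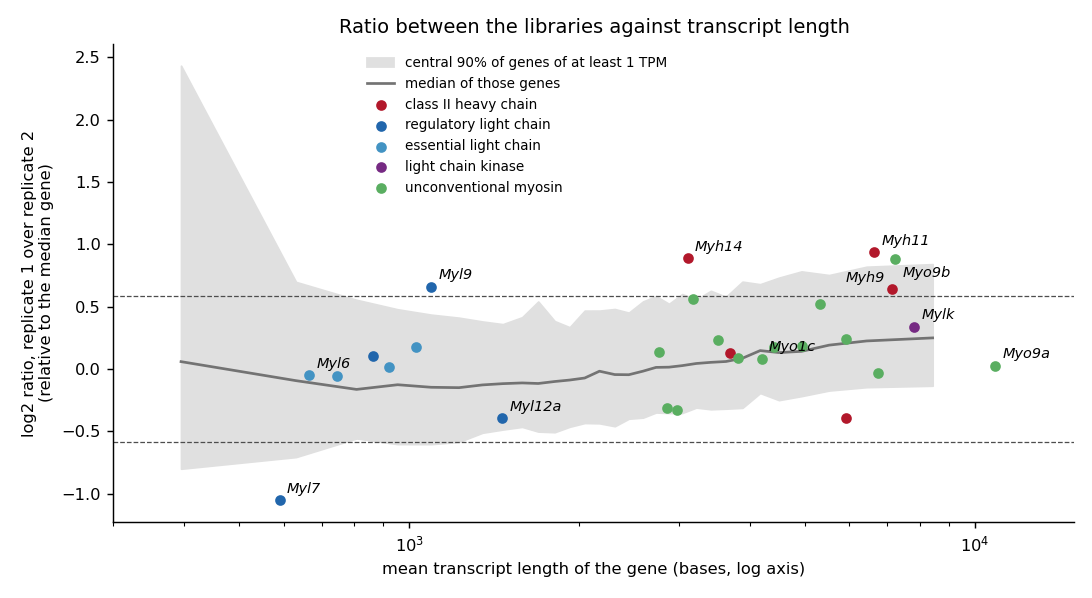
Log2 ratio of replicate 1 over replicate 2 in TPM, relative to the median of all genes, against transcript length in bases on a log axis, for 28 of the 29 myosin genes that averaged at least 1 TPM, with the running median of all genes as a line, the central 90% of them as a grey band and dashed lines at a fold of 1.5. The median line climbs with length, and Myh11, Myh14, Myo9b, Myl9 and Myh9 lie above the upper line and Myl7 below the lower one.

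All 10 smooth muscle markers had ratios above 0 (median 0.64), and 5 of them passed the fold: Smtn (0.85), Myocd (0.78), Cald1 (0.77), Lmod1 (0.75) and Synpo2 (0.74). Their summed TPM was 27489 in replicate 1 and 25183 in replicate 2. The actins Acta2 (0.14) and Actg2 (0.17) and the actin-binding Tagln (0.09) lay nearer to 0 than Myh11 and Myl9. All 6 superficial urothelium markers had ratios below 0 (median -0.43), with summed TPM of 3921 and 5602. Other lists also lay above 0, with 2 of 3 fibroblast markers past the fold (Col1a1 at 0.66 and Pdgfra at 0.67, with Dcn at -0.09) and 1 of 2 endothelial ones (Cdh5 at 0.83, with Pecam1 at 0.45). The part of tissue makeup in the myosin ratios was not tested. In the phosphatase list the myosin-targeting subunits Ppp1r12c (1.10; 115 and 56.7 TPM) and Ppp1r12b (0.86; 125 and 72.5 TPM) passed the fold, as did Myo6 (0.70) among the myosins outside the rule, while no gene of the kinase list, the calmodulins or the folding list did.

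Promoter sequences from RefSeq (GRCm38.p6) were searched on both strands for the CArG box, a site bound by serum response factor, which with myocardin drives smooth muscle genes. The window was the 250 bases before each start and 50 after it. A box was present in 535 of 32851 promoters in all (1.63%). Of the 54 promoters of the 43 myosin genes with an entry, 7 had a box, each of another gene: Myl6, Myl9, Myo1e, Myl7, Myl3, Myh4 and Myh13. These include the 2 genes of highest TPM, Myl6 and Myl9, and also 3 genes with at most 5 counts in a library (Myl3, Myh4 and Myh13), and Mylk, Myl12a and Myl12b had none in this window. For Mylk the only start searched, chr16:34784950, lies near the 5′ end of Mylk-201, whose junction 1 had 0 reads. The internal promoters of Mylk and the start of Mylk-202 at chr16:34745210, whose first joint was read, were not searched. Myh11, Mylk2, Myo18b, Myo1d, Myo5b and Myo7b had no entry.

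The promoters of the 2 highest genes are shown, with the box in capitals and the 250 bases before the start, 5′ to 3′ on the strand of the gene. For Myl6 both RefSeq starts are given, since both of its 5′ forms were read. The box lies in the window of the downstream start, 50 bases before it, and the window of the upstream start has none.
Myl6 downstream start, chr10:128493010-128493259, minus strand: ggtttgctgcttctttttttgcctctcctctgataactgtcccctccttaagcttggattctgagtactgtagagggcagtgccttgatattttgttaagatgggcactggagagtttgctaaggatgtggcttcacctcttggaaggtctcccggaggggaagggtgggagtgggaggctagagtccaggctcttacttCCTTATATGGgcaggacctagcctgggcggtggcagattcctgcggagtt
Myl6 upstream start, chr10:128493887-128494136, minus strand: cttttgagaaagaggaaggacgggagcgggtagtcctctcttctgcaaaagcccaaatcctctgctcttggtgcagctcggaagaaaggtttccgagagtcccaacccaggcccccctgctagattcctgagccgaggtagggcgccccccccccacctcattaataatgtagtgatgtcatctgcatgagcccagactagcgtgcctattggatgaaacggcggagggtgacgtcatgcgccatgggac
Myl9, chr2:156775214-156775463, plus strand: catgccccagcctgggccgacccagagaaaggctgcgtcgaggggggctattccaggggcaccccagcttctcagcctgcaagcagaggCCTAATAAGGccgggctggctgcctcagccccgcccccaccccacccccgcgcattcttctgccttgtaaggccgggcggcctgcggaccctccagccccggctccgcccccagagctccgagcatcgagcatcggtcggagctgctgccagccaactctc

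In Myl9 the box begins 161 bases before the start. A match of these letters is a description of the window and shows no binding.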

How the data were processed

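Polyadenylated RNA of adult mouse bladder was measured in 2 libraries of 1 group. Per the file headers, the authors deposited gene and transcript tables on mm10 with expected counts, which need not be whole, and TPM, scaled by transcript length and library sum. The annotation was GENCODE M4, per the deposited sample descriptions. For the series they deposited mm9 tables of RPKM (2 values not tied to a replicate, so their mean was used) and splice junctions with read counts. No source used here names the aligner or the counter. TPM here is the maximum likelihood value. Rows that are not Ensembl genes took 5.01% and 5.98% of the expected counts and were left out. Of 43346 genes 42462 matched GENCODE M21, which gave symbols and positions.

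Detection was 1 TPM in both libraries, and 0.5 TPM was added before taking ratios, so those of low genes are understated. Expected counts were rounded for the TMM factors of edgeR 4.0.16 and the size factors of DESeq2 1.42.0 in R 4.3.3, used only as other scalings. Junctions held 53589498 and 60510166 reads in libraries R1 and R2. Exons were matched from mm9 to M21 by gene, exon length and both intron lengths, with no conversion of coordinates. Exon sequences come from the transcripts of M21 and promoters from RefSeq. Other steps used Python 3.11.15, numpy 2.4.6, pandas 2.3.3, scipy 1.17.1 and matplotlib 3.10.9, and were tested on simulated data.

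The genes, lists and rules were chosen with earlier results of these data known. Values are given for each myosin gene that averaged at least 1 TPM and for striated chains at any level, for pathway genes the 3 of highest mean, those past the fold and those under 1 TPM in both, for exons those between 5% and 95%, and for transcripts the leading ones among those with a mean share of at least 10%. The 21-base exon of Myh11, the 2 other Myl6 exons and the exons of the Myl6 choices lie outside that rule or were chosen after their values were seen. The comparison of Mylk steps with Myh9 was too. A few genes and exons under these rules are not reported here, though counts over all members still hold them.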

Additional observations from a re-analysis of the deposited data

How the results depend on the processing

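No paired analysis was possible because there is 1 group and no contrast. Alternatives with coding transcripts alone, with median junction reads and with M21 exons outside the mm9 table were chosen after seeing the data. The identity of paralog proteins was not run.

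The number of myosin genes at 1 TPM in both libraries, 29, was 21 to 31 over 6 alternatives, and the number past the fold was 6 in all 7, with Myh2 in place of Myh9 once the length trend was removed. Leaving out a library gave 30 without replicate 1 and 29 without replicate 2.

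The share of Myh11 among heavy chains was 93.76% in coding transcripts and 93.45% by junction reads (89.97% to 92.52% leaving out a library). That of Myl6 among essential light chains was 98.71% in CPM, 97.34% in mm9 RPKM, 99.34% in coding transcripts and 94.97% by junction reads, with an SD of 0.026. By junction reads the Myl6 level, here and in the pairs below, is a median that fell on a junction of only 1 of its 5′ forms. The Myl9 share stayed within its SD (79.52% to 86.90% leaving out a library).

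Of 15 pairs 11 kept their order under all 9 alternatives. On the log2 scale Myh11 over Myh9 was 3.77 in mm9 RPKM. Myl6 over Myl6b was 11.64 with a pseudocount of 0.1, 11.16 with 1, 10.43 in CPM, 8.10 in mm9 RPKM and 9.01 by junction reads. Myl12a over Myl12b reversed to 0.50 in CPM, 0.52 in mm9 RPKM, 0.27 in coding transcripts and 0.47 by junction reads. Myl9 over Myl6 reversed to 0.011 in CPM, 1.39 in mm9 RPKM and 1.71 by junction reads. Myo5a over Myo5b reversed to 0.66 in CPM and 0.92 in coding transcripts. Myo9a over Myo9b reversed to 0.39 in CPM and 0.15 in mm9 RPKM, and ranged from -0.62 to 0.23 leaving out a library. It kept its sign at -0.35 in coding transcripts and -2.49 by junction reads. CPM is not divided by transcript length, so its values also hold the difference in length between the genes of a pair. Apart from that, the cause was not tested.

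With at least 200 reads 8 of the 12 exons between 5% and 95% were left, and with M21 exons there were 15. Counted by the upstream junction alone there were 15 such exons, and by the downstream junction alone 16. By the downstream junction alone the Myo9b 90-base exon was 60.6%, and by the upstream junction alone the Myo9b 114-base exon was 54.1%. Of 36 transcript shares 2 moved beyond their SD with the posterior mean TPM. Exons under about 100 reads have wide intervals, and annotated transcripts limit what the transcript shares can show.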
